A study of Mus musculus with 12 samples.

Results

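Fibroblasts are the connective-tissue cells that lay down and remodel the collagen matrix of skin and of tumours. In a tumour they can take on a contractile myofibroblast state, marked by smooth-muscle actin and a stiff matrix, or secretory states that release cytokines, chemokines and complement, and they also display antigen on MHC class I when they sense interferon. The cells described here are the fibroblasts of mouse tumours, picked from single-cell transcriptomes by their own transcripts. A cell was a member if it held at least 10 UMIs (individually tagged transcripts) of Col1a1 and Col3a1 together, at least 2 of Dcn and at least 1 of Pdgfra or Dpt, with no Ptprc, no Pecam1 and at most 1 Tyrobp UMI. This gate found 1616 cells among 110606 cells of days 6 to 16, or 1.46%. They came from 38 tumours, with 6 to 135 cells per tumour and a median of 39.

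The tumours grew from lines named SCC35 in a series on melanoma rejection. Control tumours came from the lines labelled as controls of the Mif knockout, numbered 15 and 18, and KO tumours from the Mif KO lines 19 and 24. Mif is the gene of a secreted cytokine, macrophage migration inhibitory factor, and the labels give the knockout as a property of the line. Tumours were told apart by hashtag antibodies and were read at day 6, 10 or 16. There were 18 control tumours with 853 gated cells and 17 KO tumours with 655. A further 3 tumours labelled WT, with 108 gated cells, are given by their values and entered no test. The labels used here name no agent, host strain or age. Each group is 2 lines, so that a difference between the groups is also a difference between 2 pairs of lines, and the p-values cover the spread between tumours of these 4 lines. Lines 15, 18, 19 and 24 each filled a library of their own, and both other libraries mixed tumours of several lines. The single-line libraries differed in depth, with a median from 3072 UMIs per cell for line 24 to 9121 for line 15. Libraries shared 296 to 709 cell barcodes pairwise.

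The SCC35 cells have mesenchymal transcripts of their own, so the label was checked against genes the gate did not use. Xist, which is transcribed from the inactive X chromosome of female cells, was at 118, 171 and 339 CPM (counts scaled to the total of the summed cells; lowest, median and highest tumour) in the gated cells of 18 control tumours and at 171, 329 and 518 CPM in those of 15 KO tumours. The Ptprc-positive cells of the same tumours, which are leukocytes of the host, held 163 to 348 CPM in control and 162 to 418 CPM in KO tumours. The other cells, those without Ptprc and Pecam1 that fell outside the gate, which include the line cells, held 6.87 to 35.9 and 4.08 to 48.0 CPM. The gated range overlapped that of the leukocytes, reached above it in line 24, and did not overlap that of the other cells.

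Mif, the edited gene, was read next. In the other cells it was at 1737 to 2779 CPM in control tumours and at 53.9 to 1150 CPM in KO tumours, so that the edit could be read in the line cells. In gated cells it was at 867, 1287 and 1930 CPM in control tumours (lowest, median and highest) and at 830, 1151 and 1682 CPM in KO tumours. These ranges overlapped, and the difference did not pass the test (log2 fold change -0.13, SE 0.10, edgeR quasi-likelihood adjusted p = 0.434). Ptprc-positive cells held 1026 to 1814 CPM of Mif in control and 456 to 1573 CPM in KO tumours, and the part of free Mif RNA from line cells in these values was not tested. The sign of the small difference in gated cells turned with the setting, to 0.16 with cells thinned to 3000 UMIs before gating and to 0.14 in the mixed libraries. The plot of Mif and Xist by cell class shows gated cells apart from other cells in Xist. In Mif the gated and other cells of KO tumours overlapped, since other cells of line 24 in the mixed libraries reached 1150 CPM. The other cells of line 24 held 353 to 474 CPM in its own library and 1048 to 1150 CPM in the mixed libraries. Those of line 19 held 53.9 to 69.9 CPM and 307 to 391 CPM. The part of cells or RNA from other tumours in these values was not tested.

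**Figure D1:**
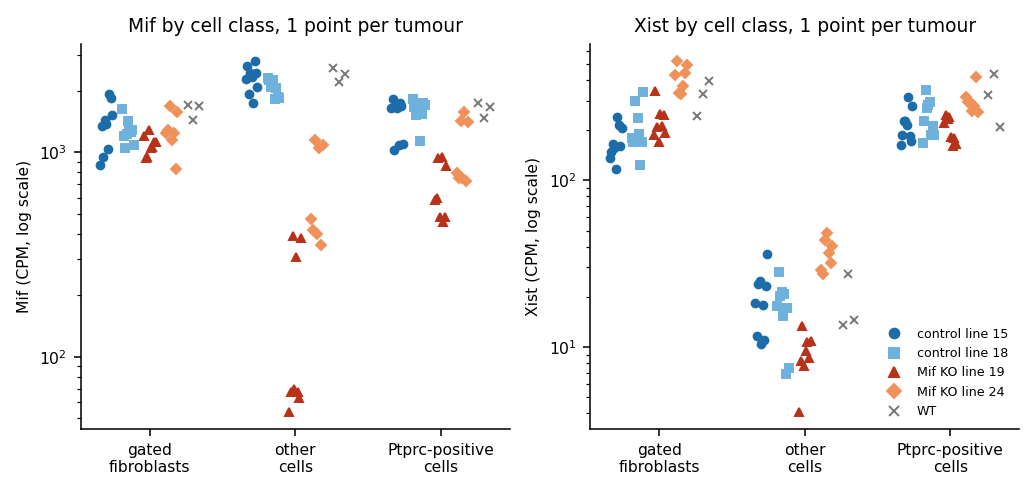
Mif (left) and Xist (right) in CPM on a log scale, summed over the gated fibroblasts, the other cells and the Ptprc-positive cells of each tumour, 1 point per tumour, with colour and symbol for the line. Xist of gated cells (118 to 518 CPM in control and KO tumours) overlaps the Ptprc-positive cells (162 to 418 CPM), lies below them at the median in control tumours (171 against 221 CPM), and is above all other-cell points, and Mif of gated cells in KO tumours (830 to 1682 CPM) overlaps the control range of 867 to 1930 CPM.

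Among day 0 samples, 20 of 5769 cells met the gate, or 0.347% (exact Clopper-Pearson 95% interval 0.212% to 0.535%). These 20 cells held 241 CPM of Xist against 1.88 CPM in the other day 0 cells, and 13 of them carried a single hashtag of line 24. Whether they were cells of tumours that carried a day 0 hashtag was not tested. Single gated cells were not sorted into host and line, so an overlap with mesenchymal line cells is possible. Gated cells had a median of 8240 UMIs, against 6245 in other cells and 2962 in Ptprc-positive cells. Doublets of 2 cells of 1 tumour carry the same hashtag and remain.

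Fibroblast markers outside the gate (10 genes, among them Col1a2, Thy1, Pdpn and Prrx1) summed to 5311 to 10720 CPM in control and 5194 to 10440 CPM in KO tumours, against 343 CPM in other cells. Within this sum only Mfap5 and Fap were higher in KO than in control gated cells, and the other markers were lower. Thy1 was at 1196 CPM in control and 592 CPM in KO, Prrx1 at 549 and 304 CPM and Pdpn at 314 and 196 CPM. All 8 macrophage markers were detected but summed to 11.0 to 157 CPM in control and 3.52 to 72.0 CPM in KO tumours, against 4782 CPM in Ptprc-positive cells. The 7 T-cell markers summed to 0 to 92.3 CPM in control and 0 to 105 CPM in KO tumours, with a higher median in KO (11.2 CPM) than in control tumours (3.14 CPM). The part of T-cell RNA in the gene results was not tested. Pericyte and smooth muscle markers summed to 2.43 to 145 and 10.1 to 61.4 CPM, endothelial markers to 0 to 27.8 and 0 to 21.3 CPM, and keratinocyte markers to 3.97 to 99.0 and 5.34 to 133 CPM. Schwann cell markers summed to 90.6 to 212 and 121 to 280 CPM, close to the 142 CPM of other cells, nearly all of it Ncam1. Chondrocyte and osteoblast markers summed to 73.8 to 190 and 91.6 to 287 CPM, against 134 CPM in other cells, nearly all of it Sox9 and Runx2. These 3 genes do not separate gated cells from line cells. Melanocyte markers summed to 13.2 to 44.4 and 10.6 to 43.2 CPM, of which Mitf gave nearly all (357 counts, 25.3 CPM in control and 24.8 CPM in KO gated cells, against 17.1 and 11.7 CPM in other cells). Of the other 6, Pmel, Sox10 and Mlana had 4, 3 and 2 counts and Tyr, Dct and Tyrp1 none.

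At the edge of the gate, 540 cells met every other criterion but had no Pdgfra or Dpt UMI, and 531 members had exactly 1. Xist was at 249.9 CPM in the former and 238 CPM in the latter. For Dcn, 53 cells lay just outside with 1 UMI and 33 just inside with 2. Here the sides differed, with Xist at 242 CPM outside and 599 CPM inside, and Mif in KO tumours at 487 CPM (28 cells) and 1239 CPM (18 cells). A further 35 cells missed the gate by 1 Ptprc UMI and 30 by 1 Pecam1 UMI.

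The first comparison asked how many fibroblasts a tumour held. Fibroblasts made up less of the captured cells at later days, and less of them in KO tumours at day 10. In control tumours the share was 1.69%, 2.70% and 3.35% at day 6 (lowest, median and highest of 6), 1.14%, 2.50% and 3.16% at day 10 and 0.636%, 1.33% and 2.83% at day 16. In KO tumours it was 1.43%, 1.601%, 1.825%, 2.45% and 3.28% in the 5 tumours of day 6, 0.395%, 1.26% and 1.63% at day 10 (lowest, median and highest of 6) and 0.281%, 0.563% and 1.03% at day 16. The groups overlapped at every day. The mean share at day 10 was 1.16% ± 0.455 (SD, n = 6) in KO and 2.33% ± 0.683 (SD, n = 6) in control tumours, a difference of -1.17 percentage points (two-sided exact permutation test over tumours, p = 0.0108, adjusted over 3 days 0.0325). At day 16 the means were 0.647% ± 0.319 and 1.46% ± 0.836 (exact permutation p = 0.0455, adjusted 0.0682), and at day 6 they were 2.12% ± 0.755 and 2.61% ± 0.585 (exact permutation p = 0.238, adjusted 0.238). The day 10 difference did not hold without line 15 (-0.776 points, exact permutation adjusted p = 0.357), without line 19 (-1.39 points, adjusted p = 0.0714) or without line 24 (-0.943 points, adjusted p = 0.286).

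From day 6 to day 16 the share fell by 1.15 percentage points in control tumours (two-sided exact permutation p = 0.0281, adjusted 0.0281) and by 1.47 points in KO tumours (exact permutation p = 0.00433, adjusted 0.00866). In line 18 the mean went from 2.46% at day 6 to 0.792% at day 16, and in line 15 from 2.77% to 2.14%. In line 19 it went from 2.10% to 0.825% and in line 24 from 2.14% to 0.469%. At day 0 the same gate took 0.347% of all cells. For line 24 it took 0.609% in day 0 sample B (exact Clopper-Pearson 95% interval 0.325% to 1.04%) and 0% in sample A. The line 24 tumours of day 16, at 0.281%, 0.491% and 0.636%, lay close to these day 0 shares. The part of this background in the late shares was not tested. The WT tumours held 1.32% at day 6, 1.33% at day 10 and 0.896% at day 16. Neither fall passed when 1 of the group's own lines was left out (exact permutation adjusted p 0.1 and 0.3 in control tumours, and 0.2 and 0.1 in KO tumours). With 3 tumours against 3 the exact test cannot go below 0.1. A share of dissociated, sorted cells does not give cell numbers in the tumour.

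**Figure D2:**
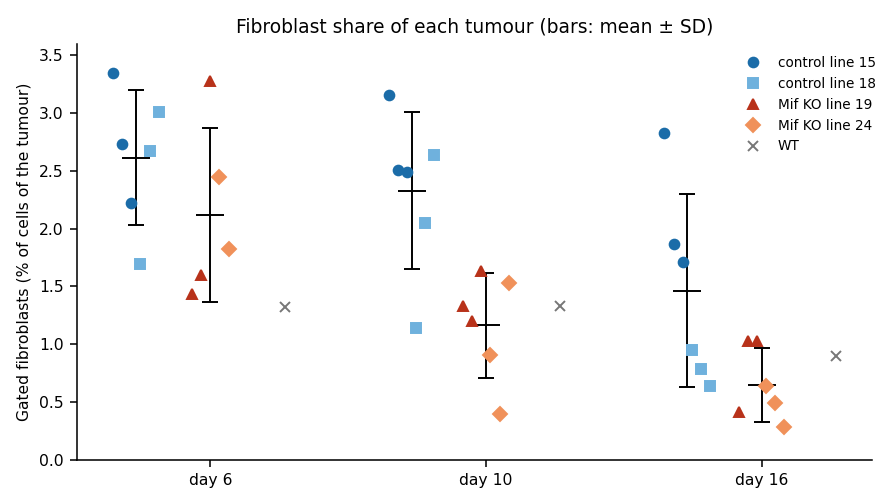
Gated fibroblasts as a percentage of all hashtag-called cells of each tumour, by day, with 1 point per tumour and the mean ± SD of control and KO tumours. The highest KO tumour of day 16 (1.03%) lies below 3 of the 6 control tumours of that day.

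The second comparison asked which fibroblast genes differed between tumours of Mif KO and control lines. Fibroblasts of KO tumours carried more transcripts of interferon-induced genes, MHC class I genes, complement and a list of resting-fibroblast genes, and fewer of Wnt and growth factor genes and of several myofibroblast genes. In each of the lists that were higher, 3 or fewer genes passed with library as a term. Counts were summed over the gated cells of each tumour with at least 10 of them (853 cells in 18 control tumours and 640 cells in 15 KO tumours, 89238 to 1338203 UMIs per tumour) and fitted in edgeR with day as a term. Of 4764 genes tested, 848 passed an adjusted p of 0.05, or 17.8%. They were 411 higher (8.63%) and 437 lower (9.17%) in KO tumours (47 higher of 168 calls in the mixed libraries alone), and the median log2 fold change over all genes was -0.004. In 825 of the 848 both KO line means were above, or both below, the means of lines 15 and 18. The 848 include the 5 positive gate genes (2 higher and 3 lower), which chose the cells and are not read as results, so that 843 calls lie outside the gate (409 higher and 434 lower). Only 3 genes (0.063%) separated the groups without overlap: Col15a1, S100a16 and Stc1. In 316 of the 848 the gated level exceeded the level in other cells and in Ptprc-positive cells in both groups, and in 286 the gated level was below that of other cells; the part of free RNA from those cells was not tested.

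Library and line are the same thing in the single-line libraries, so the fit was repeated on the tumours of the mixed libraries. These were 6 control and 6 KO tumours, fitted with day but not library as a term. There 168 genes passed, of which 47 were higher in KO, and 152 of these were among the 848 with the same sign, which is 90.5% of the mixed-library calls and 17.9% of all calls. Of 803 called genes that could be tested in the mixed libraries, 795 had the same sign. The tumours of the mixed libraries are also in the fit that gave the 848, so this agreement is partly built in. With library as a term 250 genes passed, 79 of them higher. A single-line library holds 1 group only, so the group difference in that fit also rests on the tumours of the mixed libraries. With 1 sum per line 435 of 11072 tested genes passed, 211 of them higher. Of these, 272 were among the 848 with the same sign, which is 32.1% of all calls. The even split of higher and lower calls was therefore not seen in the mixed libraries or with library as a term, which are not separate checks. The counts of the lists described below are also given with library as a term. Fewer tumours inform the group difference there, so a gene can lose its call at a similar fold change.

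Among matrix genes, Col15a1, a basement-membrane collagen, rose without overlap. It was at 8.37, 41.5 and 118 CPM in control tumours (lowest, median and highest of 18) and at 147, 249 and 834 CPM in KO tumours (of 15), and every KO tumour lay above every control tumour (log2 fold change 2.78, SE 0.30, edgeR adjusted p = 2.17e-08, and 2.42 in the mixed libraries, adjusted p = 0.00253). The gene lies on chromosome 4, 47207655 to 47313167 (GRCm38). Its level in the other cells was 2.43 CPM in control and 4.47 CPM in KO tumours. Thbs4, a thrombospondin of the matrix, went from 0, 10.1 and 117 CPM to 0, 164 and 903 CPM (log2 fold change 3.41, SE 0.45, adjusted p = 7.78e-07), with 11 of 15 KO tumours above all control tumours. The KO tumour at 0 is the line 24 tumour of day 16 with 10 gated cells. Cilp, a matrix protein of cartilage and fibroblasts, went from a median of 37.3 to 169 CPM (2.28, SE 0.36, adjusted p = 1.06e-05, but 1.44 with library as a term, adjusted p = 0.137, and 1.47 in the mixed libraries, adjusted p = 0.117), and Aspn, a small proteoglycan that binds TGF-beta, from 14.4 to 87.2 CPM (2.40, SE 0.29, adjusted p = 8.54e-08).

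S100a16, a calcium-binding protein gene, went from 18.8, 46.7 and 118 CPM to 133, 206 and 478 CPM with no overlap (log2 fold change 2.22, SE 0.21, edgeR adjusted p = 8.64e-10). Here the other cells differed as well, at 14.8 CPM in control and 91.3 CPM in KO tumours, and the part of their RNA in the gated value was not tested.

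Stc1, which encodes the secreted hormone stanniocalcin 1, fell without overlap. It was at 31.0, 191 and 565 CPM in control tumours and at 0, 3.22 and 25.3 CPM in KO tumours, and every KO tumour lay below every control tumour (log2 fold change -4.90, SE 0.39, edgeR adjusted p = 3.59e-11, and -4.41 in the mixed libraries, adjusted p = 0.00046). Stc1 lies on chromosome 14, 69029289 to 69041401 (GRCm38), and was at 3.79 and 2.15 CPM in the other cells. Il11, an IL-6 family cytokine made by activated fibroblasts, was at 92.8, 341 and 1468 CPM in control and at 0, 49.4 and 278 CPM in KO tumours (log2 fold change -2.64, SE 0.42, adjusted p = 1.61e-05), with 11 of 15 KO tumours below all control tumours. The Il11 difference did not pass with library as a term (-1.94, adjusted p = 0.0654) or in the mixed libraries (-2.07, adjusted p = 0.0584). The other cells held 37.7 and 30.3 CPM of Il11. Tnfsf11, the ligand RANKL that drives osteoclast formation, went from a median of 47.3 to 6.21 CPM (-2.96, SE 0.35, adjusted p = 6.95e-08).

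The other genes of this leading set that fell were Hp, the plasma protein haptoglobin (median 135 to 1.54 CPM, log2 fold change -4.06), Rab3c, a vesicle GTPase (76.5 to 1.46 CPM, -3.92), Tac1, the precursor of substance P (43.5 to 2.91 CPM, -3.58), Kcnk10, a potassium channel (78.0 to 15.4 CPM, -2.71), and Gzme, a granzyme gene (49.3 to 0 CPM, -3.00). Gzme is usually a gene of cytotoxic lymphocytes. It was at 18.9 CPM in Ptprc-positive cells of control tumours, below the level in gated cells, and 1 KO tumour reached 226 CPM. That tumour is again the line 24 tumour of day 16 with 10 gated cells. The Gzme difference did not pass in the mixed libraries (-2.44, adjusted p = 0.0815), with library as a term (-2.47, adjusted p = 0.0599) or without line 19 (-2.16, adjusted p = 0.0672). The granzyme genes of the mouse are a family of close copies, and reads shared among them could be miscounted.

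**Figure D3:**
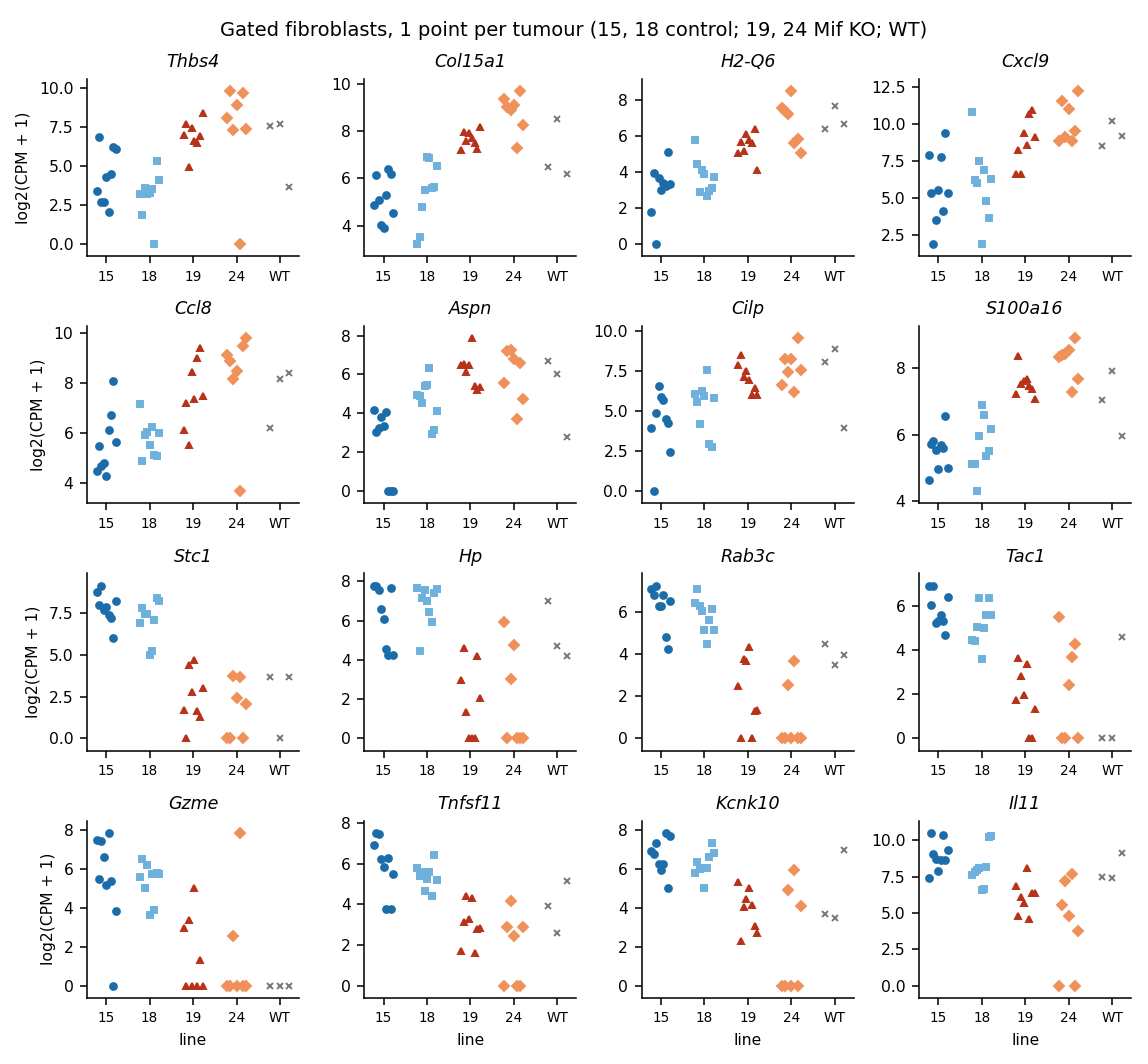
The 8 genes with the largest rise (top 2 rows) and the 8 with the largest fall (bottom 2 rows) in gated fibroblasts of KO tumours, as log2(CPM + 1) with 1 point per tumour and lines 15, 18 (control), 19, 24 (Mif KO) and WT along the x axis. Col15a1, S100a16 and Stc1 separate all 15 KO from all 18 control tumours.

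Interferon-induced genes were higher as a group. Of 21 tested members of a 28-gene interferon list, 17 rose and none fell, with a median log2 fold change of 1.12 (-0.004 over all genes). With library as a term 3 of 21 rose, with a median of 1.09. Cxcl9, a chemokine that attracts T cells through Cxcr3, varied widely between tumours, at 2.78, 56.0 and 1829 CPM in control and 96.6, 571 and 4872 CPM in KO tumours (log2 fold change 2.63, SE 0.63, edgeR adjusted p = 0.0025). The Cxcl9 difference did not pass with library as a term (2.85, adjusted p = 0.195), without line 15 (2.34, adjusted p = 0.0887) or without line 24 (1.91, adjusted p = 0.114), and passed in the mixed libraries (3.25, adjusted p = 0.026). Only 4 of the 15 KO tumours exceeded the highest control tumour, which was a line 18 tumour of day 10. Its sister chemokine Cxcl10 went from a median of 203 to 605 CPM (1.55, adjusted p = 0.010) and the GTPase Gbp2 from 44.7 to 197 CPM (2.04, adjusted p = 0.000453). Ly6e, with the smallest called rise, went from 904 to 1125 CPM (0.35, adjusted p = 0.012, and 0.23 with library as a term, adjusted p = 0.476). The change was not confined to fibroblasts: all 17 genes were also higher in KO in the summed other cells, and 15 of 17 in Ptprc-positive cells. The list summed to 2812 CPM in control and 6328 CPM in KO gated cells, and to 1662 and 2819 CPM in other cells.

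Because these genes moved together, their promoters were read for the interferon-stimulated response element, searched as 2 copies of GAAA with any 2 bases between them on both strands, and the GAS element, searched as TTCNNNGAA, a palindromic pattern, in the 250 bases before the first listed RefSeq start (GRCm38.p6). Of the 17 genes, 13 had a promoter in the table. The paired GAAA pattern was present in 11 of the 13 (84.6%), against 3.04% of 27025 promoters, and the TTCNNNGAA pattern in 4 (30.8%) against 7.18%. Of all genes higher in KO, 310 of 411 had a promoter and 8.39% of these held the paired GAAA pattern, against 2.67% of 337 promoters of genes that were lower. The former are 26 genes and include the 11 of the list. The TTCNNNGAA pattern was in 7.74% and 5.04% of these promoters. Of 9 antigen presentation genes higher in KO with a promoter, 2 held the paired GAAA pattern. The interferon list was chosen for its interferon response, so its share is a description. Of the genes that held a pattern, 4 of those with the largest rises are shown, to let the patterns be seen in place, with both patterns in capitals and 15 bases on either side where the window allows, 5′ to 3′ along the gene. They lie at chr3:142620589-142620628 (plus strand), chr5:92349078-92349117 (minus), chr11:48871421-48871465 (minus) and chr11:58199496-58199546 (plus). In Irgm1 both copies overlap.
Gbp2: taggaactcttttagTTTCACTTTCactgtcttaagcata
Cxcl10: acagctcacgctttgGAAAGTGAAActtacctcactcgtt
Irgm1: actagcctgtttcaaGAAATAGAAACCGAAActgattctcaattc
Igtp: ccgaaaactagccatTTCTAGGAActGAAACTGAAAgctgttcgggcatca

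Antigen presentation followed. All 10 tested genes of a 16-gene list rose, with a median log2 fold change of 1.13, and 3 of 10 passed with library as a term (median 0.96). H2-Q7, a nonclassical class I gene, was at 6.75, 27.3 and 121 CPM in control and 38.8, 108 and 254 CPM in KO tumours (1.94, SE 0.29, edgeR adjusted p = 5.14e-06). H2-Q6 rose by 2.66 on the log2 scale (SE 0.39, adjusted p = 4.48e-06), but H2-Q6 and H2-Q7 are near copies, and reads could be split between them. The classical class I heavy chain H2-K1 went from a median of 542 to 1282 CPM (1.30, adjusted p = 1.31e-05), its partner B2m from 1285 to 2255 CPM (0.96, adjusted p = 2.98e-05) and the peptide transporter Tap1 from 39.2 to 107 CPM (1.27, adjusted p = 0.00072). Psmb8, a subunit of the immunoproteasome, rose least (0.91, SE 0.20, adjusted p = 0.00103, and 0.92 with library as a term, adjusted p = 0.112). All 10 were also higher in KO in other cells and in Ptprc-positive cells.

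Complement genes rose in 7 of 8 tested, with a median of 1.12. With library as a term none of the 8 rose and Cd55 fell, with a median of 0.68. C3, the central component, was at 11.6, 60.5 and 249 CPM in control and 29.9, 199 and 969 CPM in KO tumours (2.12, SE 0.41, edgeR adjusted p = 0.000244). In the mixed libraries the C3 difference was 1.26 and did not pass (adjusted p = 0.32). The proteases C1s1 and C1ra rose by 1.24 and 1.01 and their inhibitor Serping1 by 0.98. Cd55, a surface inhibitor of complement, fell from 15.9, 122 and 239 CPM to 8.72, 19.3 and 94.97 CPM (-2.56, SE 0.24, adjusted p = 8.64e-10). The list summed to 823 and 1543 CPM in gated cells and to 24.2 and 46.5 CPM in other cells. Of the 7 genes that rose, 6 were also higher in KO in other cells and 7 in Ptprc-positive cells, and Cd55 was lower in both.

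Genes of resting, so-called universal fibroblasts were higher in 11 and lower in 3 of 17 tested, with a median log2 fold change of 0.70. Fitted with library as a term, 2 rose and 1 fell (median 0.67). Besides Col15a1 these included Mfap5, a microfibril protein (median 185 to 805 CPM, 1.99, edgeR adjusted p = 3.29e-08), Col14a1, a fibril-associated collagen (14.2 to 58.7 CPM, 1.83, adjusted p = 0.000306), and the surface proteins Ly6c1 (1.65) and Ly6a (0.86), of which Ly6a is also induced by interferon. Cd55, Lum and Fbln1 of the same list fell. In the summed other cells 8 of the 11 were also higher in KO and all 3 also lower. In Ptprc-positive cells 9 of the 11 and all 3 went the same way.

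The myofibroblast list split. Of 20 tested genes 4 rose and 9 fell, with a median of -0.26. With library as a term 1 rose and 6 fell (median -0.51). In the summed other cells all 4 were also higher in KO and 8 of the 9 also lower. In Ptprc-positive cells this was so for 4 of 4 and 4 of 9. Postn, a matrix protein of activated fibroblasts, rose from 281, 706 and 1880 CPM to 1033, 1930 and 3423 CPM (1.44, SE 0.16, edgeR adjusted p = 4.81e-08, and 1.11 in the mixed libraries, adjusted p = 0.0566), and Lox, which cross-links collagen, rose by 0.95. Tgfbi, a TGF-beta induced matrix protein, fell from 156, 250.2 and 432 CPM to 45.2, 90.1 and 164 CPM (-1.38, SE 0.16, adjusted p = 4.42e-08), but was also lower in other cells (249.8 to 74.8 CPM). The actin-binding tropomyosin Tpm1 fell by 0.82 (adjusted p = 6.43e-06) and Col12a1, a fibril-associated collagen, also fell (adjusted p = 0.000632). Acta2, the smooth-muscle actin that defines the state, had a log2 fold change of 0.00 (SE 0.34, adjusted p = 0.9998). Of 16 collagen genes outside the gate, 3 rose (Col15a1, Col14a1 and Col8a1) and 3 fell (Col7a1, Col12a1 and Col18a1), and with library as a term 1 rose and 2 fell. Col7a1, the anchoring-fibril collagen of skin, went from 121, 484 and 1001 CPM to 8.75, 86.3 and 355 CPM (-2.02, SE 0.27, adjusted p = 9.47e-07).

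Growth factors and Wnt modulators fell in 7 of 13 tested and rose in 1 (Angptl4, 0.48, adjusted p = 0.0343), with a median of -0.96. With library as a term 7 fell and none rose (median -1.08). Sfrp1, a secreted Wnt antagonist, was at 75.9, 289 and 789 CPM in control and 25.8, 86.3 and 168 CPM in KO tumours (-1.91, SE 0.23, edgeR adjusted p = 6.95e-08). The Wnt ligand Wnt5a went from a median of 212 to 43.2 CPM (-1.58, adjusted p = 3.95e-05), the BMP antagonist Grem1 from 555 to 191 CPM (-1.48, adjusted p = 2.67e-05) and Fgf7, a growth factor for epithelium, from 165 to 64.9 CPM (-1.41, adjusted p = 2.05e-07). The list summed to 2003 CPM in control and 1034 CPM in KO gated cells, and to 395 and 448 CPM in other cells. Gene by gene, 5 of the 7 that fell were also lower in KO in the summed other cells, and 3 of 7 in Ptprc-positive cells. Twist2, a mesenchymal transcription factor among the markers outside the gate, fell from a median of 525.7 to 108 CPM (-2.03, adjusted p = 5.19e-08).

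Inflammatory fibroblast genes rose in 9 and fell in 3 of 20 tested, with a median of 0.30. The fit with library as a term called 1 higher and none lower (median 0.18). In the summed other cells 7 of the 9 were also higher in KO and 2 of the 3 also lower. In Ptprc-positive cells this was so for 7 of 9 and 1 of 3. Has1, a hyaluronan synthase, was at 11.6, 50.7 and 130.4 CPM in control and 71.2, 203 and 545 CPM in KO tumours (1.92, SE 0.25, edgeR adjusted p = 5.93e-07), the alarmin Il33 rose by 1.78 and the eosinophil chemokine Ccl11 by 1.19, while Il11, Ptgs2 and Cxcl14 fell. Ccl8, a monocyte chemokine outside the list, was at 18.6, 47.1 and 272 CPM in control and 11.9, 346 and 888 CPM in KO tumours (2.40, SE 0.33, adjusted p = 1.66e-06, and 2.02 in the mixed libraries, adjusted p = 0.0592). Metalloproteinase and inhibitor genes went both ways. Of 12 tested, 5 were higher, led by Timp3 (302 to 671 CPM, 1.32, edgeR adjusted p = 5.08e-06), and 4 lower, led by Mmp19 (210.3 to 101 CPM, -1.10, adjusted p = 3.57e-05). Over all genes 8.63% were higher and 9.17% lower. For this list of 12, 2 were higher and 3 lower with library as a term. All 5 and all 4 differed the same way in the summed other cells, and 5 and 3 in Ptprc-positive cells.

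Several lists did not move as groups. Of 16 tested hypoxia and glycolysis genes 1 passed (Hk2, 0.46, edgeR adjusted p = 0.0439), and of 19 cell cycle genes 1 (Tyms, -0.54, adjusted p = 0.0389). Neither passed with library as a term (Hk2 0.09, adjusted p = 0.903; Tyms -0.15, adjusted p = 0.856), where 1 other hypoxia gene, Pgk1, and no cell cycle gene did. Of the list of Mif and its receptors, Mif, its homologue Ddt and the receptor genes Cd44 and Ackr3 could be tested. None of these 4 passed in edgeR or DESeq2, and 1 had an unadjusted p under 0.05. The receptor genes Cd74, Cxcr2 and Cxcr4 did not enter the test. Immediate early and stress genes, which respond to dissociation, rose in 5 of 13 (Atf3 0.94, adjusted p = 0.000207) and fell in 4 (Hspa1b -0.86, adjusted p = 0.00152); with library as a term 1 of 13 passed, Ier3. Xist itself was higher in KO tumours (0.67, SE 0.16, adjusted p = 0.0023), with line means of 172 CPM (15), 209 CPM (18), 226 CPM (19) and 416 CPM (24). In the mixed libraries the Xist difference was 0.30 (adjusted p = 0.66). The nuclear RNA Malat1 averaged 8737 CPM in KO and 7890 CPM in control gated cells, and mitochondrial counts 1.31% and 1.24%. The part of these in the gene results was not tested.

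**Figure D4:**
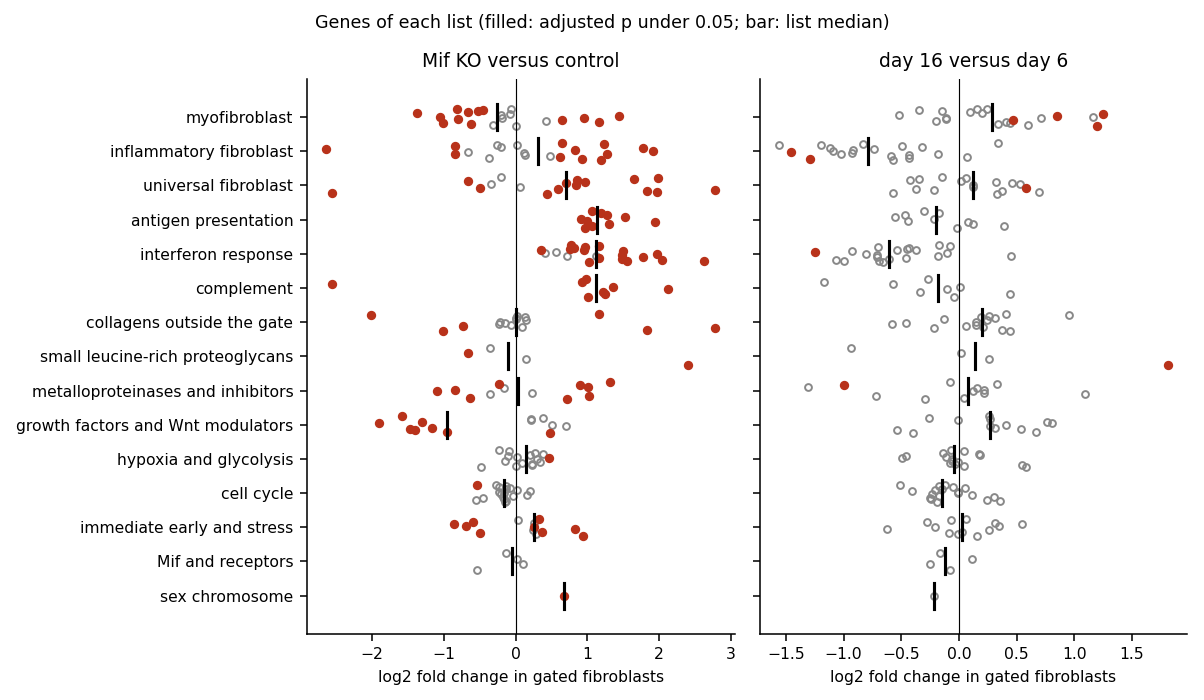
Log2 fold change of each tested gene of 15 lists in gated fibroblasts, KO versus control (left) and day 16 versus day 6 (right), with filled points past an adjusted p of 0.05 and a bar at each list's median. Interferon, antigen presentation and complement medians lie at 1.12, 1.13 and 1.12 on the left and at -0.61, -0.19 and -0.18 on the right.

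At 1 fixed depth the differences showed as shares of cells. Gated cells with at least 3000 UMIs (796 control and 611 KO cells, with 57 and 44 shallower cells left out) were thinned to 3000 UMIs. Col15a1 was then seen in 10.2% of control and 43.5% of KO cells, against 0.693% and 0.991% of other cells. The range over tumours with at least 10 such cells was 2.04% to 23.1% in 18 control tumours and 25.8% to 76.5% in 14 KO tumours, without overlap. Stc1 was seen in 26.4% of control and 2.13% of KO cells, against 0.924% and 0.703% of other cells. Il11 was seen in 30.03% and 9.49%, and the KO share was close to that of other cells (7.13% and 7.74%). Cxcl9 was seen in 8.04% and 32.6%, and also rose in Ptprc-positive cells, from 9.69% to 23.9%. Acta2 was seen in 38.6% and 39.3%. Without thinning the shares were 18.6% and 64.3% for Col15a1, 38.6% and 4.58% for Stc1, 40.9% and 20.6% for Il11, 10.6% and 37.9% for Cxcl9 and 48.5% and 51.3% for Acta2.

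Pairs of genes were also counted in the same cells. Of 81 control cells with Col15a1, 60.5% also had Mfap5, against 29.7% of the cells without Col15a1, and in KO cells these shares were 85.3% and 59.7%. Of 210 control cells with Stc1, 49.5% had Il11, against 23.04% of those without. Of 524 control cells with Postn, 45.4% had Acta2, against 25.4% of those without. Il11 was seen in 28.4% of control cells with Col15a1 and 30.2% of those without, and in 8.65% and 10.1% of KO cells. These shares pool tumours and days whose levels differ, so they do not separate cells from tumours. They are over cells, which are not replicates, and carry no test.

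The WT tumours gave a further reference for the direction of these differences. Stc1 was at 11.6, 11.7 and 0 CPM in the WT tumours of days 6, 10 and 16, below the control range and within the KO range. Col15a1 was at 72.7, 89.2 and 364 CPM, within the control range at days 6 and 10 and within the KO range at day 16. H2-Q7 was at 198, 157 and 225 CPM, above all 18 control tumours. Il11 was at 556, 174 and 170 CPM, within the control range, and the values of days 10 and 16 were within the KO range too. Over the 843 called genes outside the gate, the mean of the WT tumours lay nearer to the KO mean than to the control mean in 582 (69.04%), which were 239 of 409 genes higher and 343 of 434 genes lower in KO. Within the library that holds the WT tumours, with 2 control and 3 KO tumours, this was so for 532 (63.1%). Mif in the other cells of WT tumours was at 2201 to 2571 CPM, as in control tumours. These 3 tumours share 1 library and were not tested. Their values are plain CPM, while the KO and control means carry TMM scaling between tumours. In that library the 2 control tumours do not cover the 3 days of the WT tumours. No share was taken over genes that were not called.

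The third comparison followed fibroblasts from day 6 (11 tumours) to day 16 (10 tumours) over both groups. Acta2, Tagln, Postn and Fn1 of the myofibroblast list were higher at day 16, and the chemokines Ccl2 and Cxcl5 were lower. The Ccl2 fall was larger in the means of the control lines than in those of the KO lines. The test of whether the day 16 change differed between the groups did not call Ccl2. Of 4764 genes 98 passed, or 2.06%, with 43 higher (0.903%) and 55 lower (1.15%). From day 6 to day 10 (12 tumours) 6 genes passed (0.126%), 1 higher (0.021%) and 5 lower (0.105%). The day 16 count depended on keeping both control lines: it was 3 without line 15 and 5 without line 18. It was 105 without line 19 and 202 without line 24. The mixed libraries gave 0 calls in edgeR with 312 genes at an unadjusted p under 0.05. All 92 called genes that could be tested in the mixed libraries kept their sign there, but those tumours are part of the fit that called them. Each of the 20 genes named by rule for day 16 lost its call under at least 1 alternative other than the mixed libraries alone.

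Acta2 was at 145, 331 and 531 CPM at day 6 (lowest, median and highest), at 129, 730 and 1665 CPM at day 10 and at 201, 651 and 1681 CPM at day 16 (log2 fold change from day 6 to 16 1.20, SE 0.31, edgeR adjusted p = 0.0374). The actin-binding protein gene Tagln went from 114, 338 and 674 CPM at day 6 to 275, 651 and 1473 CPM at day 16 (1.25, SE 0.29, adjusted p = 0.022), and Postn and Fn1 rose by 0.85 and 0.47. Without line 19 Tagln rose by 0.79 (edgeR adjusted p = 0.166). The mean of Tagln went from 387 to 921.5 CPM in line 15 and from 267 to 1430 CPM in line 19. In line 18 the Tagln mean went from 394 to 475 CPM and in line 24 from 323.5 to 447 CPM. By line, the mean of Acta2 went from 376 to 1083 CPM in line 15, from 347 to 1150 CPM in line 19 and from 236 to 588 CPM in line 24, but from 358 to 332.5 CPM in line 18. Acta2, Tagln, Postn and Fn1 were the called members of 20 tested myofibroblast genes, none of which passed as lower. Other matrix genes that rose were Aspn (1.81, adjusted p = 0.00817), Spon1, a neuronal guidance matrix protein (1.66, adjusted p = 0.00247), and Mfap4, a microfibril protein (1.53, adjusted p = 0.0129). Line 24 differed from the pooled direction or was level in its means: Aspn went from 59.7 to 60.6 CPM, Spon1 from 326 to 183 CPM and Mfap4 from 308 to 161.5 CPM. These means are over 2 tumours at each day, and 1 of day 16 is the tumour with 10 gated cells. The other tumour of day 16 held 109 CPM of Aspn, 271 CPM of Spon1 and 276 CPM of Mfap4. Ecrg4 (1.96), Brinp3 (1.64), Tnfrsf9, a costimulatory receptor (1.58), Ptn, the growth factor pleiotrophin (1.34), and C1qtnf2 (1.25) completed the largest rises. Without line 15 Ecrg4 rose by 0.62 (edgeR adjusted p = 0.730) and C1qtnf2 by 0.73 (adjusted p = 0.476).

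Ccl2, the monocyte chemokine, was at 1094, 1780 and 4184 CPM at day 6 and 241, 591 and 2303 CPM at day 16 (-1.29, SE 0.28, edgeR adjusted p = 0.0159). Its mean went from 2341 to 460 CPM in line 15 and from 1172 to 387 CPM in line 18. In the means of the KO lines Ccl2 fell by a smaller factor, from 2565 to 1754 CPM in line 19 and from 2982 to 2108 CPM in line 24. Each of these day 16 means is over 2 tumours, and Ccl2 did not pass the interaction term described below. The neutrophil chemokine Cxcl5 fell by 1.46 on the log2 scale (SE 0.35, adjusted p = 0.0223), and both were the called members of 20 inflammatory genes, with a list median of -0.79 against 0.012 over all genes. Timp1, an inhibitor of metalloproteinases, went from 2025, 4553 and 6778 CPM to 1223, 1935 and 4199 CPM (-1.0, SE 0.20, adjusted p = 0.00637). Of 21 interferon-list genes 1 passed, Irf7 (-1.25, adjusted p = 0.0174), with a list median of -0.61. Zc3h12a, an RNase that limits cytokine mRNAs (-1.32), Thbd, the anticoagulant receptor thrombomodulin (-1.48), Fabp4, a fatty acid carrier of adipocytes and endothelium (-1.58), Apod (-1.23) and Irx1 (-1.21) were the other largest falls. Without line 15 the change was -0.84 for Thbd (edgeR adjusted p = 0.439) and -0.86 for Zc3h12a (adjusted p = 0.291). Fabp4 overlapped between days, with 9.37 to 176 CPM at day 6 and 0 to 58.3 CPM at day 16. Pecam1-positive cells held 1613 CPM of it in control and 1202 CPM in KO tumours, and the other 5 of 6 adipocyte markers were at 0 in gated cells; the part of such cells was not tested. Of 87 ribosomal protein genes tested, 9 fell and none rose, against 1.15% lower and 0.903% higher over all genes.

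**Figure D5:**
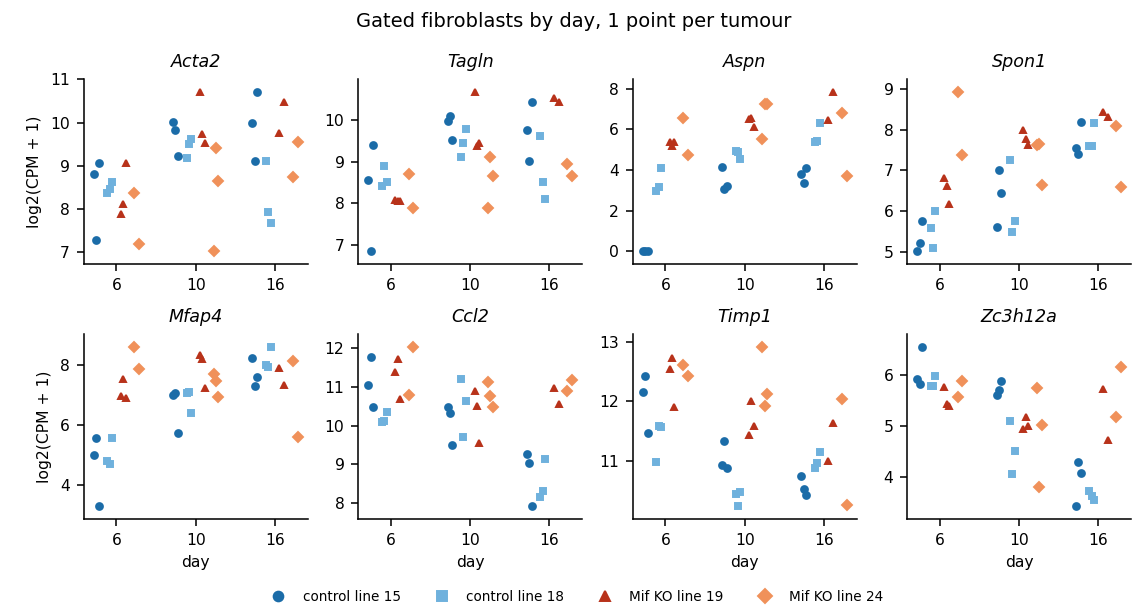
Genes of gated fibroblasts as log2(CPM + 1) by day, with 1 point per tumour and colour and symbol for the line. Acta2 rises from a median of 331 CPM at day 6 to 651 CPM at day 16, and Ccl2 falls from 1780 to 591 CPM. On this scale Ccl2, Mfap4 and Zc3h12a move in control lines more than in KO lines, but Ccl2 did not pass the interaction term.

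The day 16 change differed between the groups in 9 genes (0.189%) by the interaction term. For Mfap4 the mean went from 31.0 CPM at day 6 to 255 CPM at day 16 in control tumours and from 209 to 181 CPM in KO tumours (difference of the changes -2.84 on the log2 scale, edgeR adjusted p = 0.00642). For Zc3h12a it went from 63.4 to 13.0 CPM in control and from 48.3 to 46.0 CPM in KO tumours (difference 2.08, adjusted p = 0.0226). The other 7 were Cxcl1, Cxcl2, Ereg, Gadd45a, Inhba, Ppp1r15a and Mcm6, named after their values were seen, of which Mcm6 had a negative difference and the rest a positive one.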

How the data were processed

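Gene expression and hashtag reads of cells from mouse tumours were deposited as raw UMI counts per gene and barcode, made by the authors on mm10 per the submitters' processing notes, by Cell Ranger 6.0.0 (per the file headers). The hashtag sheet gave each tumour's line, day and letter. Barcodes were kept with at least 300 genes, at most 15% mitochondrial counts and a top hashtag of at least 20 counts and at least 3 times the second. This was aimed at doublets between tumours, and how many cells or RNA of other tumours remained was not tested. No other doublet caller was run. Counts were summed per tumour (10 or more gated cells) and fitted in edgeR 4.0.16 (filterByExpr, TMM, glmQLFTest, day and group, Benjamini-Hochberg adjustment) under R 4.3.3, tested on simulated data. CPM of named genes are TMM-scaled; CPM of Mif, Xist, marker lists and WT tumours are not. Shares used exact permutation over tumours with at least 100 cells (scipy). Nothing in the labels says that tumours came from separate animals, so p-values measure the spread between tumours. Promoters matched 3772 of 4764 tested genes by symbol. Intervals cover counting error only.

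Named genes are Mif, Xist, each list's called members of largest and smallest change, and per comparison the 8 largest changes each way (adjusted p under 0.05, mean log2 CPM at least 4, not gate genes, and for KO versus control both KO line means beyond both control line means). Further list members, and the WT and co-detection genes, were chosen after their values were seen. Members and lists were chosen with earlier results of these data known. The 5 positive gate genes stayed in the fit and its counts, and no result is read from them. Alternatives were RLE scaling, DESeq2 1.42.0, all genes unfiltered, 5 or 20 cells per tumour, other gates, thinning, a stricter cell filter, library subsets, a library term and 1 sum per line. Separately, each line was left out in turn with counts summed per tumour. A block by tumour letter was added after seeing the data.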

Additional observations from a re-analysis of the deposited data

Results flagged for a closer look

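In 2 genes named in the report the change from day 6 to day 16 differed between the groups by the edgeR interaction term. The difference (KO minus control, log2) was -2.84 for Mfap4 (adjusted p = 0.00642) and 2.08 for Zc3h12a (adjusted p = 0.0226). No tumour's fibroblast share stood apart from its group in the 6 groups of tumours checked.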

How the results depend on the processing

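The alternatives were run for the genes named by rule, not for every list member. None of these but Mif changed direction. Of the 35 besides Mif named for KO versus control, 19 kept their call under every alternative in which they could be tested, and of 20 named for day 16 none did. The count of KO calls (848) was 207 with both Pdgfra and Dpt in the gate, 546 with thinned cells and 168 in the mixed libraries. It was 250 with library as a term and 435 (of 11072 genes tested) with 1 sum per line. With 1 line left out it was 372 to 891, lowest without line 15. The day 16 count (98) was 155 in DESeq2, 209 without a count filter, 2 with both genes in the gate, 65 thinned, 0 in the mixed libraries, 24 in the single-line libraries and 3 to 202 with 1 line left out. With both genes in the gate 14 control and 9 KO tumours and 2370 genes entered, and with thinned cells 18 and 13 tumours and 2962 genes. The cause was not tested. The Mif difference (-0.13) turned to 0.16 thinned, 0.14 in the mixed libraries and 0.08 with library as a term, and was -0.26 to 0.02 with 1 line left out.

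The day 10 share difference (-1.17 points) did not pass with both genes in the gate (-0.509), in the mixed libraries (-0.983) or in the single-line libraries (-1.26), and was -1.56 to -0.776 with 1 line left out. That of day 16 (-0.817) was -1.49 to -0.145 with 1 line left out, and passed without line 18. The fall to day 16 in control tumours (-1.15) did not pass with both genes in the gate (-0.29), in the mixed (-1.44) or single-line libraries (-1.003), and was -1.67 to -0.632 with 1 line left out. That in KO tumours (-1.47) did not pass in the mixed (-1.90) or single-line libraries (-1.19), and was -1.67 to -1.28 with 1 line left out. The mixed libraries hold too few tumours a day to pass, and for the fall in KO tumours so do the single-line libraries. The groups share no replicate numbers in the sample labels. The tumour letters of the hashtag sheet recur in both groups, so a replicate block by letter was added after seeing the data. It gave 833 KO calls, 104 day 16 calls and a Mif difference of -0.12. Control and KO tumours of a day correlated in their deviations at a mean r of 0.004 with the same letter (30 pairs) and -0.002 with another (60 pairs). Letter C is the tumours of the mixed libraries, and A and B those of the single-line libraries, so this block also separates the 2 kinds of library and does not show a pairing.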
